A study of Mus musculus with 10 samples.

Results

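The regions described here are the open chromatin around 7 genes of the calcineurin and NFAT pathway, Nfatc1, Nfatc2, Nfatc3, Nfat5, Rcan1, Rcan2 and Ppp3ca, in thymic invariant natural killer T (iNKT) cells. A region was taken as a member when it overlapped the annotated body of the gene or lay within 50 kb of its 5′ end, which gave 154 of the 94823 regions in the table: 57 at Nfatc1, 30 at Nfatc2, 16 at Nfatc3, 7 at Nfat5, 8 at Rcan1, 5 at Rcan2 and 31 at Ppp3ca. Accessibility was read by ATAC-seq, where transposase insertions mark open DNA, in sorted iNKT1 (CD27+ CD122+) and iNKT2 (CD27+ CD122-) cells. The mice were BALB/c, or SKG on the same BALB/c background, whose hypomorphic Zap70 allele weakens signalling from the T cell receptor in every cell that uses Zap70. The 4 groups were BALB/c iNKT1 (2 libraries), SKG iNKT1 (2 libraries), BALB/c iNKT2 (3 libraries) and SKG iNKT2 (3 libraries) and all came from the thymus. Nothing in the labels says that the libraries of a group came from separate animals, so the p-values measure the spread between these libraries, which may be technical.

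In T cells, calcium released after receptor engagement activates calmodulin, which switches on the phosphatase calcineurin. Calcineurin removes phosphates from the NFAT factors Nfatc1, Nfatc2 and Nfatc3, which then enter the nucleus and bind DNA, often beside AP-1. Ppp3ca encodes a catalytic subunit of calcineurin, Rcan1 and Rcan2 encode small proteins that bind and restrain it, and Nfat5 is a related factor that responds to osmotic stress and lacks the calcineurin-binding part of the family.

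Levels are insertion counts scaled to library size with TMM factors (CPM), and differences are log2 changes ± SE from edgeR, with p-values adjusted over all 94823 regions. A region was called when its adjusted p was under 0.01 and its change was at least 4-fold, the thresholds of the study. Libraries held between 14988590 and 36342635 insertions in the listed regions. The subsets bore their own marks: mean levels at the start of Ifng were 61.3 and 72.6 CPM in BALB/c and SKG iNKT1 against 8.72 and 8.53 CPM in iNKT2, and at the start of Il17rb 8.05 and 6.93 CPM against 17.1 and 18.8 CPM. Zbtb16, which encodes PLZF, did not part them in this way (26.3 to 33.6 CPM over the 4 groups). Among markers of other cells, Rag1, Cd8b1, Cd79a, Csf1r and Lyz2 had no region within 1000 bp of their starts, whereas Il23r, a marker of iNKT17 cells, had 4.24 and 3.58 CPM in BALB/c and SKG iNKT2 and 0.0889 and 0.193 CPM in iNKT1. Its part in the differences between subsets was not tested. The floor of a library, its CPM per kb at percentile 5 of all regions, was 0.214 to 0.364 in iNKT1, 1.41 to 1.92 in BALB/c iNKT2 and 0.612 to 1.01 in SKG iNKT2. The base under weak regions was thus unequal between subsets. Within iNKT2 it was also unequal between genotypes, and lower in the SKG libraries. In such sorted populations, fewer cells with an open site and less opening per cell cannot be told apart.

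At the 4-fold threshold, 124 of 154 member regions were called in no comparison and 30 in at least 1. The same share over all regions was not counted. Many uncalled regions still differed by less: with no demand on fold, 20 members were higher and 36 lower in BALB/c iNKT2 than in iNKT1 (edgeR adjusted p under 0.01), beside 25.7% and 23.4% of all regions. Of the 154, 124 lay in the gene body, 107 were intronic and 11 held an annotated start of a member. Between BALB/c iNKT2 and iNKT1, 10 members were called higher and 7 lower in iNKT2, while 15.5% and 6.36% of all regions were. In SKG mice 10 were higher and 8 lower, beside 10.2% and 6.96% of all regions. Fewer members were called between the genotypes. No member was called higher in SKG iNKT1 than in BALB/c iNKT1 and 1 was lower (0.281% and 0.732% of all regions), and 36 members had an unadjusted p under 0.05 in that contrast. In iNKT2 cells, none was called higher and 5 were called lower in SKG mice (0.252% and 4.73% of all regions). There, 58 had an unadjusted p under 0.05 in edgeR. How many of all regions passed that unadjusted p was not counted, so nothing follows from the 36 and the 58. Shares of the members called were thus at or below those of the table, and nothing about the 7 genes as a set follows from them.

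Whether the difference between genotypes was unequal in iNKT2 and iNKT1 cells was tested directly. No member passed in either direction with edgeR (0.189% of all regions were called higher and 0.341% lower). Limma on voom values called none, and DESeq2 called 1 lower. In edgeR 25 members had an unadjusted p under 0.05, a count that likewise has no share of all regions beside it. The smallest adjusted p in edgeR was 0.0304, at a region of 804 bp inside Atp9b, upstream of Nfatc1 (chr18:80734322-80735125, difference of the log2 changes 0.82 ± 0.197).

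The starts of the 7 genes were compared first, since they are the sites from which the transcripts begin. Per kb of region, mean CPM over the 10 libraries was 177 at the Rcan1 start, 123 and 41.9 at the upstream and downstream regions of the Ppp3ca start, 84.9 at Nfatc3, 48.3 at the downstream start of Nfatc2, 45.0 and 25.5 at the downstream and upstream starts of Nfatc1, 31.6 at Nfat5, 6.25 at the upstream start of Nfatc2, and 4.80 and 2.34 at the 2 starts of Rcan2. Of these 11 start regions none was called between the genotypes in either subset. The calls between subsets were at Rcan2, with 2 starts higher in iNKT2 of BALB/c mice and 1 higher in iNKT2 of SKG mice.

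**Figure D1:**
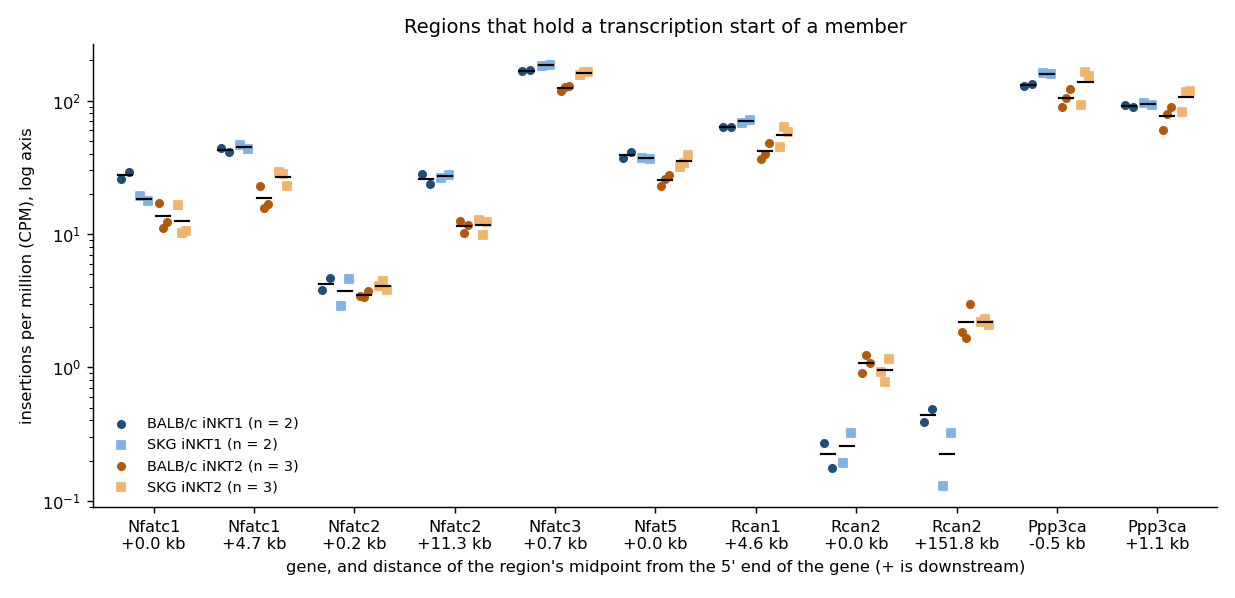
Level of each region that holds an annotated start of a member (CPM, log axis), with a point for each library, a bar at each group mean and the distance from the 5′ end under the gene. Levels lie within the same order of magnitude in the 4 groups at every gene except Rcan2, where the iNKT1 libraries sit below the iNKT2 libraries; values of different genes also reflect the widths of their regions.

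Among the starts, the Nfatc1 pair is of interest because the upstream promoter drives the short, inducible isoform in activated T cells. At the upstream start (chr18:80712707-80713371) the libraries held 25.9 and 29.4 CPM in BALB/c iNKT1, 19.2 and 17.6 in SKG iNKT1, 17.2, 11.0 and 12.4 in BALB/c iNKT2 and 16.5, 10.2 and 10.5 in SKG iNKT2. The BALB/c iNKT1 libraries were above all others. The iNKT2 level was lower in BALB/c (log2 -1.03 ± 0.214, edgeR adjusted p 6.5e-04, short of 4-fold), and the genotype differences were -0.58 ± 0.241 in iNKT1 (adjusted p 0.22) and -0.11 ± 0.199 in iNKT2 (adjusted p 0.72). At the downstream start (chr18:80708012-80708702) means were 42.7 ± 2.05 (SD, n = 2) and 44.9 ± 2.22 CPM (SD, n = 2) in BALB/c and SKG iNKT1 and 18.5 ± 3.97 (SD, n = 3) and 26.7 ± 3.49 CPM (SD, n = 3) in iNKT2. It too was lower in iNKT2, by edgeR, in BALB/c mice (-1.21 ± 0.165, adjusted p 1.4e-05) and in SKG mice (-0.74 ± 0.166, adjusted p 0.0016), without reaching 4-fold.

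The start of Nfatc3 (chr8:106058613-106060443) held 168 and 168 CPM in BALB/c iNKT1, 182 and 185 in SKG iNKT1, 117, 126 and 129 in BALB/c iNKT2 and 155, 163 and 162 in SKG iNKT2. The genotype difference in iNKT2 was 0.37 ± 0.100 (edgeR adjusted p 0.014), and the 2 sets of iNKT2 libraries did not overlap.

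Rcan1, itself a known NFAT target that feeds back on calcineurin, held the only member region called lower in SKG cells of both subsets. The site is a 426 bp stretch in an intron, 27052 bp downstream of the 5′ end (chr16:92443603-92444028, GRCm38/mm10, gene on the minus strand). Its central 300 bases are shown because they hold the NFAT core string TGGAAA at 2 places, given on the plus strand with the matches in capitals (reference strain sequence, chr16:92443666-92443965).
Rcan1 intron: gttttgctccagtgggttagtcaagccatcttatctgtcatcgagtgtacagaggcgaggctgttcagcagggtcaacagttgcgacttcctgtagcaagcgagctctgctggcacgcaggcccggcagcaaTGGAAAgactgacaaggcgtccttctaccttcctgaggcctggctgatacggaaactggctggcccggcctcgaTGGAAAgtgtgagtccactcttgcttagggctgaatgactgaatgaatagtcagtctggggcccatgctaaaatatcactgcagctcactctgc

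At this Rcan1 intron the libraries held 12.6 and 9.12 CPM in BALB/c iNKT1, 2.31 and 2.44 in SKG iNKT1, 8.59, 3.73 and 6.56 in BALB/c iNKT2 and 1.28, 0.643 and 1.69 in SKG iNKT2. Every SKG library lay below every BALB/c library. The change was -2.20 ± 0.388 in iNKT1 (edgeR adjusted p 0.0034) and -2.41 ± 0.335 in iNKT2 (edgeR adjusted p 1.0e-04), and the 2 changes differed by -0.22 ± 0.510 (adjusted p 0.86). The iNKT2 call held in every alternative run, whereas the iNKT1 call was lost when any of the 4 iNKT1 libraries was left out, with an adjusted p of 0.0632 without replicate 1 and 0.0127 without replicate 2 of BALB/c, and of 0.0692 without replicate 1 and 0.0530 without replicate 2 of SKG. Quantile normalization (0.0322) and subtraction of the floor (0.0283) ended it too. No other Rcan1 region was called in any comparison. The strongest one, at an annotated start 4600 bp downstream of the 5′ end (chr16:92466110-92466425), held 63.8 and 63.5 CPM in BALB/c iNKT1, 68.1 and 71.3 in SKG iNKT1, 36.7, 40.1 and 48.4 in BALB/c iNKT2 and 44.7, 63.5 and 58.3 in SKG iNKT2. Levels there were thus not below BALB/c in the SKG groups (0.13 ± 0.172, adjusted p 0.785, and 0.41 ± 0.141, adjusted p 0.043, by edgeR). A region 10247 bp downstream, in an intron between these sites, held 5.94 ± 1.01 CPM (SD, n = 2), 9.24 ± 1.72 (SD, n = 2), 6.97 ± 1.76 (SD, n = 3) and 7.81 ± 1.48 (SD, n = 3) in BALB/c iNKT1, SKG iNKT1, BALB/c iNKT2 and SKG iNKT2.

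Nfat5, the osmotic stress factor, held a weak region with a like pattern 2236 bp upstream of its start. Its 300 bp are shown because they hold TGGAAA once, again in capitals on the plus strand (chr8:107291085-107291384).
Nfat5 upstream: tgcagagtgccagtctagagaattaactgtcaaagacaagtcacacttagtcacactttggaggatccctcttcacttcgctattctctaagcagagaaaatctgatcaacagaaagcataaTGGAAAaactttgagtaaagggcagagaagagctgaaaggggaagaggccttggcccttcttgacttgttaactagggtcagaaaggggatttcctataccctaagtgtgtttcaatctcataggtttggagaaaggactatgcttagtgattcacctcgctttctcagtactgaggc

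Here the libraries held 1.05 and 1.76 CPM in BALB/c iNKT1, 0.128 and 0.192 in SKG iNKT1, 2.92, 1.56 and 1.86 in BALB/c iNKT2 and 0.446, 0.230 and 0.202 in SKG iNKT2. All SKG libraries were again below all BALB/c libraries. In iNKT2 the region was called lower in SKG mice (-2.72 ± 0.422, edgeR adjusted p 2.5e-04). In iNKT1, where the SKG libraries held 5 insertions in all, the estimate was -3.07 ± 0.652 at an adjusted p of 0.0114 in edgeR, which passed 0.01 in DESeq2 (0.00759) and with a replicate block (0.00901). The start of Nfat5 itself (chr8:107292984-107294039) held 36.9 and 41.2 CPM, 37.1 and 36.6, then 22.9, 26.03 and 27.7, and 31.9, 34.3 and 38.8 in the same order of groups, with the SKG iNKT2 libraries above the BALB/c iNKT2 libraries (0.45 ± 0.123, edgeR adjusted p 0.013).

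Nfatc1, the inducible member of the family, held the other 3 regions called lower in SKG iNKT2, all in introns far inside the gene. The first, 72605 bp from the 5′ end (chr18:80640287-80640645), was at 0.209 and 0.485 CPM in BALB/c iNKT1, 0.257 and 0.449 in SKG iNKT1, 2.85, 2.83 and 2.76 in BALB/c iNKT2 and 0.357, 0 and 0.472 in SKG iNKT2. The library at 0 could have held up to 0.138 CPM by counting error alone. Only the BALB/c iNKT2 libraries were high: the region was called higher in iNKT2 than in iNKT1 of BALB/c mice (3.07 ± 0.580, edgeR adjusted p 2.9e-04) and lower in SKG than in BALB/c iNKT2 (-3.36 ± 0.526, adjusted p 2.7e-04). In SKG mice the subsets differed by -0.39 ± 0.789 (adjusted p 0.71), and the test of the genotype change between subsets gave -3.46 ± 1.02 with an adjusted p of 0.069. Without BALB/c iNKT1 replicate 1 the subset call was lost (adjusted p 0.0135).

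The second region, 79580 bp inside Nfatc1 (chr18:80633285-80633697), held 2.51 and 2.91 CPM in BALB/c iNKT1, 1.35 and 1.54 in SKG iNKT1, 5.65, 3.12 and 3.75 in BALB/c iNKT2 and 1.34, 0.597 and 0.944 in SKG iNKT2. The change in iNKT2 was -2.07 ± 0.309 (edgeR adjusted p 1.8e-04), and it slipped just under 4-fold without BALB/c iNKT2 replicate 1 (-1.79) or SKG iNKT2 replicate 2 (-1.82). The third, at 60107 bp (chr18:80652815-80653114), was named after its values were seen. It fell from 1.26 ± 0.490 to 0.295 ± 0.0814 CPM (SD, n = 3 each; -2.01 ± 0.462, edgeR adjusted p 0.0048), a call that was lost when BALB/c iNKT2 replicate 2 or 3, or SKG iNKT2 replicate 2 or 3, was left out (adjusted p 0.0160, 0.0245, 0.0215 and 0.0173) and in the fit with the replicate block (-1.93). It was also lost with voom (adjusted p 0.0155), quantile normalization (-1.40, adjusted p 0.106) and the floor subtracted (adjusted p 0.0158).

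These 3 sites lie with 3 other intronic regions between 41319 and 79580 bp from the 5′ end of Nfatc1. The bounds are the midpoints of regions that were lower, so the stretch was drawn around them and its values are only a description. In it, 5 of the 6 were lower in SKG than in BALB/c iNKT2 at an adjusted p under 0.01. Over all 154 members, 8 were lower and 5 higher at that threshold with no demand on fold (10.1% and 4.02% of all regions). Nfatc1, which holds 57 of the members, had 6 of the 8. At 4-fold, 3 of its 57 regions (5.26%) were called lower, beside 4.73% of all regions, so its shares lay near those of the table. The other 2 lower regions of the stretch were chosen after their values were seen. At chr18:80671427-80672078 levels were 7.47, 6.38 and 5.52 CPM in BALB/c iNKT2 and 2.44, 1.56 and 1.82 in SKG iNKT2 (-1.71 ± 0.217, edgeR adjusted p 4.3e-05), and 6.87 and 6.52 against 2.63 and 3.21 in iNKT1 (-1.20 ± 0.264, adjusted p 0.014). At chr18:80670608-80670973 they were 4.58, 3.70 and 3.71 CPM against 2.47, 1.10 and 1.35 in iNKT2 (-1.23 ± 0.262, edgeR adjusted p 0.0030). Estimates over the 6 regions ran from -3.36 to -0.89 in iNKT2 and from -1.20 to 0.10 in iNKT1. Nearer the start, a 300 bp intronic region 2972 bp downstream (chr18:80709950-80710249) held 2.06 and 1.94 CPM in BALB/c iNKT1 and 0.385 and 0.513 in SKG iNKT1. Its change of -2.14 ± 0.459 had an adjusted p of 0.0119 in edgeR and of 0.00808 in DESeq2. Upstream, 2 regions inside Atp9b were higher in SKG iNKT2 by less than 2-fold, such as chr18:80734322-80735125 with 22.7, 22.5 and 23.3 CPM against 16.7, 15.8 and 13.9 in BALB/c iNKT2 (0.57 ± 0.124, edgeR adjusted p 0.0036). They count as Nfatc1 members only by distance.

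**Figure D2:**
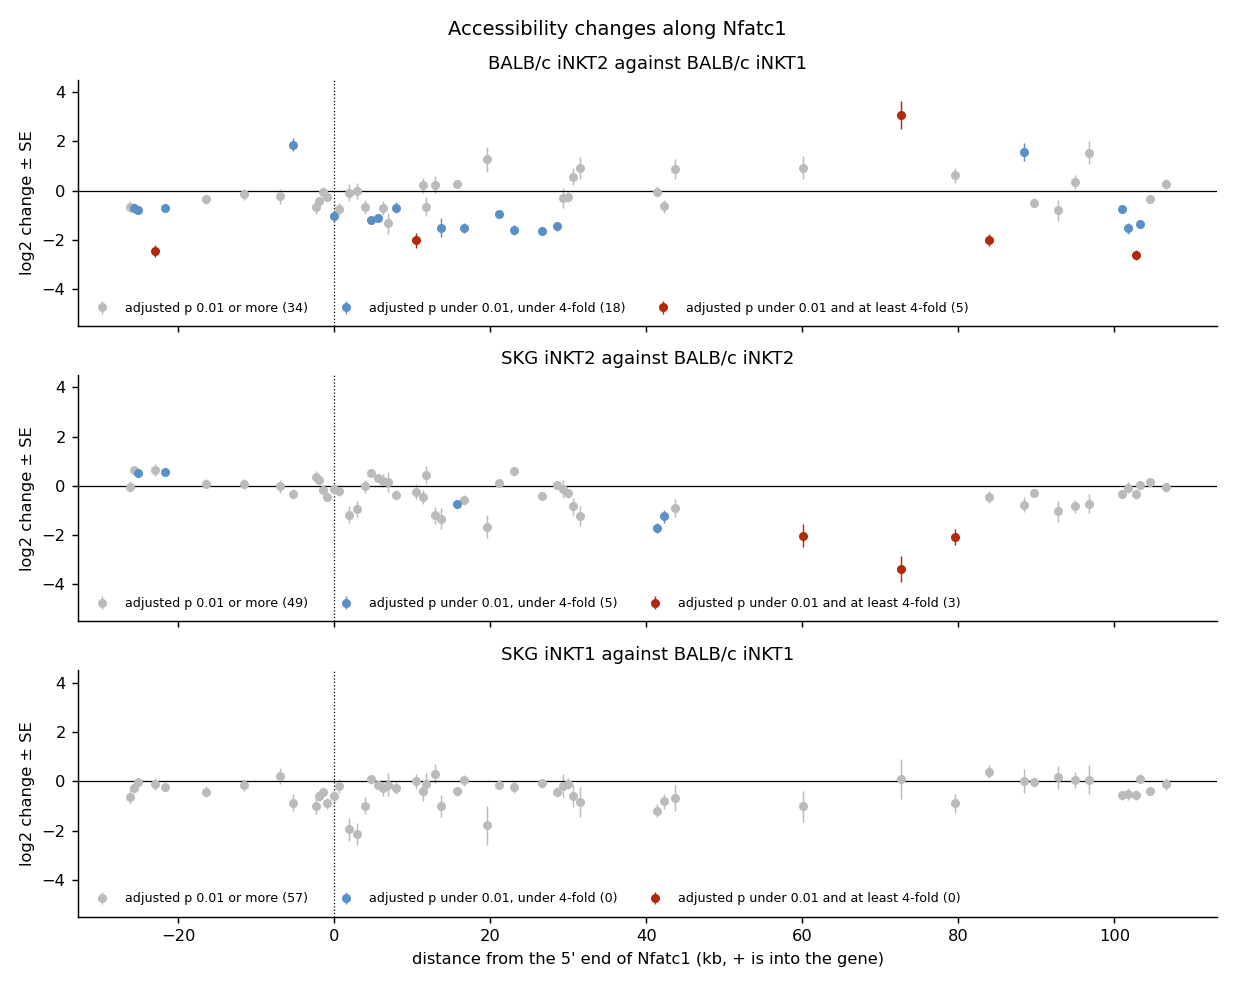
Log2 change ± SE of the 57 Nfatc1 regions against their distance from the 5′ end of the gene (kb), in 3 comparisons, coloured by whether the adjusted p was under 0.01 and the change at least 4-fold. In the SKG iNKT2 panel the 3 called regions lie together deep inside the gene, and in the SKG iNKT1 panel no region was called.

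**Figure D3:**
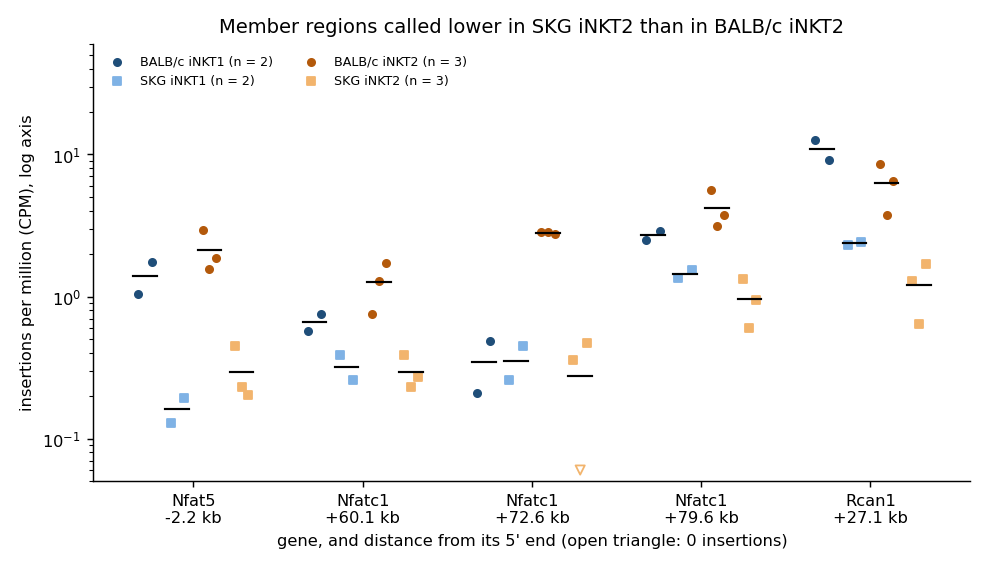
Levels (CPM, log axis) of the 5 member regions called lower in SKG than in BALB/c iNKT2, with a point per library, bars at group means and an open triangle for the library with 0 insertions. The SKG iNKT2 libraries lie below the BALB/c iNKT2 libraries at all 5, and the iNKT1 libraries part by genotype without overlap at all except the Nfatc1 region 72605 bp inside the gene.

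The subset comparison asked which of these sites differ between iNKT1 and iNKT2 cells in each genotype. At an adjusted p under 0.01 with no demand on fold, 20 members were higher and 36 lower in iNKT2 of BALB/c mice (25.7% and 23.4% of all regions), and 19 higher and 32 lower in SKG mice (18.4% and 17.6%). The median log2 change of the members was -0.27 in BALB/c mice beside 0.06 for all regions, and -0.06 beside 0.14 in SKG mice. With library totals in place of TMM these medians became 0.02 beside 0.34 and 0.13 beside 0.32, so the sign depends on the scaling. Such a change of scale moves all regions by nearly the same amount, so it cannot test the position relative to them. With quantile normalization and voom the medians were -0.28 beside -0.002 and -0.14 beside 0.08. The genes differed: with TMM their medians ran from -0.63 at Nfatc1 to 2.21 at Rcan2 in BALB/c mice, and from -0.39 to 1.73 at the same genes in SKG mice.

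**Figure D4:**
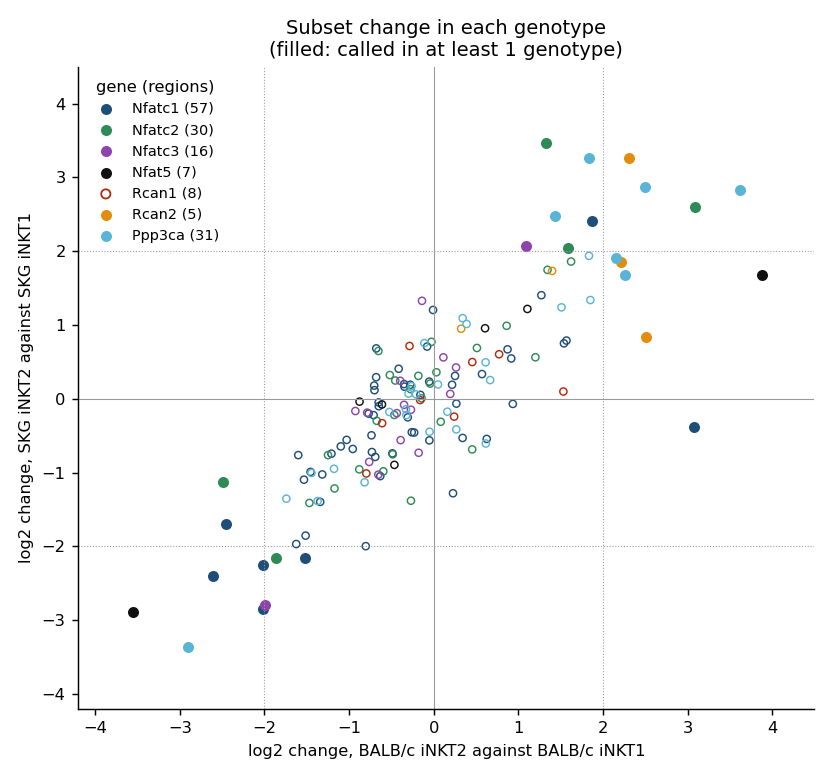
Log2 change of iNKT2 against iNKT1 in SKG mice (vertical) and BALB/c mice (horizontal) for the 154 member regions, coloured by gene and filled where called in at least 1 genotype. Called regions lie in the upper right and lower left, apart from the Nfatc1 region at 3.07 in BALB/c and -0.39 in SKG mice; dotted lines mark 4-fold.

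At Nfatc1, 20 of 57 regions were lower and 3 higher in BALB/c iNKT2 at an adjusted p under 0.01, beside 23.4% and 25.7% of all regions. Of these, 4 lower (7.02%) and 1 higher (1.75%) passed 4-fold, beside 6.36% and 15.5%. An intronic region near the far end of the gene, 102814 bp from the start (chr18:80610052-80610463), held 18.6 and 17.5 CPM in BALB/c iNKT1, 11.8 and 12.8 in SKG iNKT1, 3.39, 2.94 and 2.51 in BALB/c iNKT2 and 2.91, 2.02 and 1.89 in SKG iNKT2. The subsets did not overlap, and the change was -2.61 ± 0.203 in BALB/c (edgeR adjusted p 7.2e-08) and -2.40 ± 0.217 in SKG mice (adjusted p 3.7e-07). Of the other 3 lower calls in BALB/c mice, named after their values were seen, those at 10467 and 83905 bp were each at -2.02, so close to the limit that library totals (-1.72 and -1.73) or a replicate block (-1.94 and -1.95) ended them, and the one in Atp9b (chr18:80735741-80736250) was at -2.46 ± 0.241 (edgeR adjusted p 5.8e-07). In SKG mice the sites at 10467 and 83905 bp were called lower too (-2.25 ± 0.313 and -2.85 ± 0.259, edgeR adjusted p 2.5e-05 and 3.9e-07). A site that passed 4-fold only in SKG mice lay at 16641 bp (chr18:80696254-80696606, -2.15 ± 0.217, edgeR adjusted p 1.1e-06). In BALB/c mice it was lower in iNKT2 too, short of 4-fold (-1.53 ± 0.207, edgeR adjusted p 1.4e-05). The 2 changes differed by -0.63 ± 0.303 (edgeR adjusted p 0.27). The SKG call at this site was lost with library totals (-1.96) and quantile normalization (-1.87). Higher in iNKT2, by contrast, was an intergenic site 5233 bp upstream of the start (chr18:80718130-80718478), which held 1.37 and 1.72 CPM in BALB/c iNKT1, 0.642 and 1.03 in SKG iNKT1, 6.56, 5.61 and 4.62 in BALB/c iNKT2 and 4.70, 4.27 and 4.32 in SKG iNKT2. It was higher in iNKT2 of both genotypes (1.87 ± 0.256, edgeR adjusted p 1.5e-05, and 2.40 ± 0.307, adjusted p 1.1e-05, only the latter past 4-fold).

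At Nfatc3 and Nfat5 the calls were few. An intergenic region 1912 bp upstream of Nfatc3 (chr8:106056767-106057090) held 4.39 and 3.35 CPM in BALB/c iNKT1, 4.69 and 4.04 in SKG iNKT1, 1.22, 0.952 and 0.701 in BALB/c iNKT2 and 1.04, 0.367 and 0.270 in SKG iNKT2. It was lower in iNKT2 at 4-fold in SKG mice (-2.80 ± 0.404, edgeR adjusted p 3.6e-05) and fell a hair short in BALB/c mice (-1.999 ± 0.364, adjusted p 2.1e-04). The Nfatc3 region called higher in SKG iNKT2 lies inside Dus2 (chr8:106052393-106052855, 2.07 ± 0.446, edgeR adjusted p 0.0012), and its call was lost without SKG iNKT1 replicate 1 (adjusted p 0.0274) or SKG iNKT2 replicate 1 (1.73), and with voom (adjusted p 0.0176) or quantile normalization (adjusted p 0.0280). At Nfat5, an intronic 300 bp region 67317 bp from the start (chr8:107360638-107360937) held 2.30 and 1.54 CPM in BALB/c iNKT1, 1.67 and 1.60 in SKG iNKT1, 0.157, 0.159 and 0.165 in BALB/c iNKT2 and 0.327, 0.184 and 0.0674 in SKG iNKT2. It was lower in iNKT2 (-3.56 ± 0.480 and -2.88 ± 0.506, edgeR adjusted p 1.3e-05 and 2.2e-04), against the direction of the libraries' floors. A stronger Nfat5 intronic region at 30849 bp held 5.83 ± 0.352 (SD, n = 2) and 5.43 ± 1.14 CPM (SD, n = 2) in iNKT1 and 12.5 ± 2.25 (SD, n = 3) and 12.6 ± 0.988 CPM (SD, n = 3) in iNKT2 of BALB/c and SKG mice, short of 4-fold. The Nfat5 site called higher in BALB/c iNKT2 (chr8:107253180-107253479) rested on 3 insertions in BALB/c iNKT1 and 82 in BALB/c iNKT2, a ratio of 16.3 with a 95% interval of 5.40 to 80.9 for counting error alone. This call was lost with quantile normalization (adjusted p 0.0231).

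Nfatc2, the NFAT factor already present in resting T cells, carried strong sites of both kinds within its introns. The region with the smallest adjusted p among those higher in BALB/c iNKT2 lies 39540 bp from the 5′ end (chr2:168561805-168562430). Its central 300 bases (chr2:168561968-168562267) are shown as a counterpart to the sites above, since neither TGGAAA nor its complement occurs in them and so no letter is in capitals.
Nfatc2 intron: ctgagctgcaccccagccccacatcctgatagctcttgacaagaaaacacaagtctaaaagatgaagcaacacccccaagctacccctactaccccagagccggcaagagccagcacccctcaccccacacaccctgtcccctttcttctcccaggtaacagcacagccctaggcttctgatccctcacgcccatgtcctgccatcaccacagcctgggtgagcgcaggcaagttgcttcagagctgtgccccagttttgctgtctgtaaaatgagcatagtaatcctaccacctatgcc

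It held 0.926 and 0.926 CPM in BALB/c iNKT1, 2.83 and 1.86 in SKG iNKT1, 8.69, 8.62 and 6.31 in BALB/c iNKT2 and 14.2, 15.4 and 13.1 in SKG iNKT2. The 4 groups did not overlap, with SKG above BALB/c in each subset. The subset change was 3.09 ± 0.259 in BALB/c (edgeR adjusted p 1.4e-07) and 2.60 ± 0.246 in SKG mice (adjusted p 5.5e-07), and the genotype change in iNKT2 was 0.85 ± 0.181 (adjusted p 0.0029) and in iNKT1 1.34 ± 0.304 (adjusted p 0.017), neither 4-fold. A stronger intronic region at 26451 bp (chr2:168574950-168575463) held 11.3 and 13.1 CPM, 8.87 and 8.47, 39.6, 34.7 and 35.6, and 36.2, 31.5 and 39.6 in BALB/c iNKT1, SKG iNKT1, BALB/c iNKT2 and SKG iNKT2. It was higher in iNKT2 by 1.59 ± 0.152 (edgeR adjusted p 4.7e-07) and 2.04 ± 0.162 (adjusted p 1.1e-07), and the SKG value fell just under 4-fold without SKG iNKT2 replicate 3 (1.97).

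On the iNKT1 side of Nfatc2 stood a broad intronic region of 1038 bp just upstream of the second start (chr2:168590705-168591742), with 71.4 and 66.8 CPM in BALB/c iNKT1, 68.6 and 72.0 in SKG iNKT1, 21.9, 17.1 and 18.2 in BALB/c iNKT2 and 20.8, 12.8 and 13.1 in SKG iNKT2. The level in iNKT2 was lower in BALB/c and SKG mice (-1.86 ± 0.181 and -2.16 ± 0.185, edgeR adjusted p 5.5e-07 and 2.2e-07). The latter was just under 4-fold with library totals (-1.96) and quantile normalization (-1.84). The region at that start (chr2:168590183-168590545) moved with it, from 25.9 ± 3.00 (SD, n = 2) to 11.5 ± 1.19 CPM (SD, n = 3) in BALB/c mice (-1.17 ± 0.159, edgeR adjusted p 1.4e-05), while the upstream start (chr2:168601120-168601740) held 4.25 ± 0.601 (SD, n = 2) and 3.51 ± 0.182 CPM (SD, n = 3; -0.27 ± 0.228, edgeR adjusted p 0.31). A further intronic site at 6717 bp (chr2:168594657-168595224) held 8.84 and 6.92 CPM in BALB/c iNKT1, 2.76 and 3.40 in SKG iNKT1, 1.79, 1.11 and 1.32 in BALB/c iNKT2 and 1.66, 1.42 and 1.01 in SKG iNKT2. The BALB/c iNKT1 libraries alone were high, with a subset change of -2.49 ± 0.261 in BALB/c (edgeR adjusted p 1.1e-06) and -1.13 ± 0.295 in SKG mice (adjusted p 0.0050). The genotype change in iNKT1 was -1.36 ± 0.292 with an adjusted p of 0.012, and its difference from that in iNKT2 was 1.36 ± 0.398 with an adjusted p of 0.067. The third Nfatc2 region called higher in SKG iNKT2, at 60223 bp (chr2:168541285-168541584, named after its values were seen), rested on 2 insertions in SKG iNKT1 and 56 in SKG iNKT2, a ratio of 12.4 after scaling with a 95% interval of 3.28 to 105 for counting error alone. Its call was lost without SKG iNKT1 replicate 1 (adjusted p 0.0335) or 2 (0.0318) or SKG iNKT2 replicate 1 (0.0125), and with voom (0.0330), quantile normalization (0.0734) or the floor subtracted (0.0157).

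**Figure D5:**
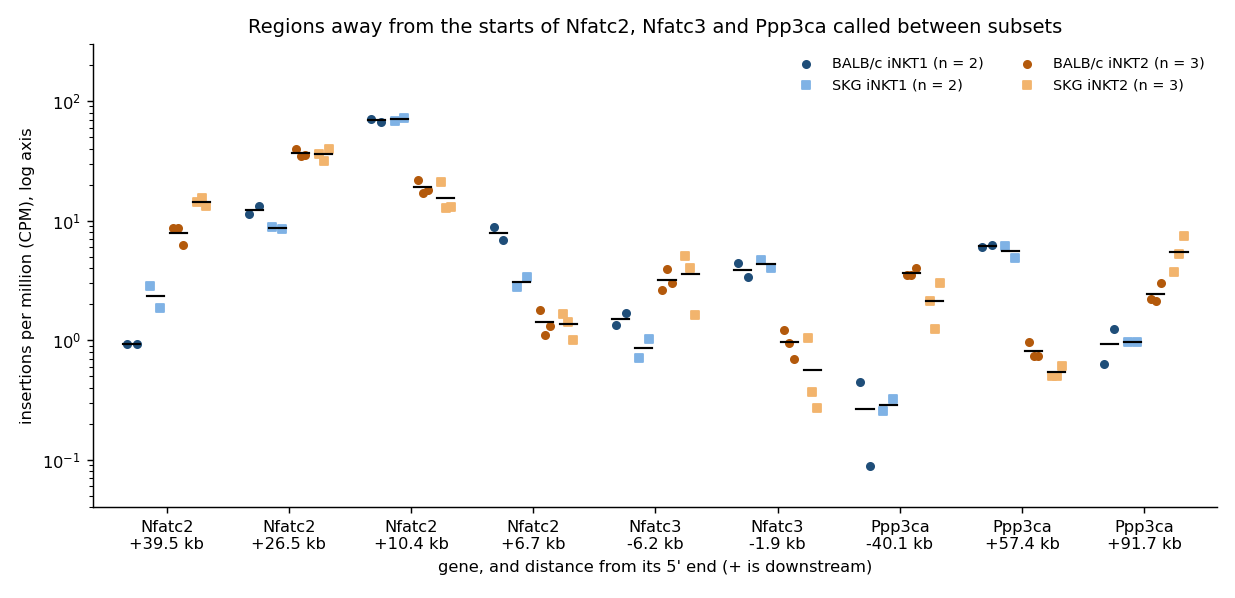
Levels (CPM, log axis) of regions of Nfatc2, Nfatc3 and Ppp3ca away from their starts that were called between subsets in at least 1 genotype, with a point per library and bars at group means. Only regions named by the rule and with a mean of at least 1 CPM are drawn, so some called regions are absent. Sites higher and sites lower in iNKT2 occur in the same gene, as at Nfatc2, where levels reach 15.4 CPM at the first site in SKG iNKT2 and fall to 12.8 CPM at the third.

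Ppp3ca, the catalytic subunit, had 4 regions called higher in iNKT2 and 1 called lower in each genotype, of 31. These are 12.9% and 3.23%, beside 15.5% and 6.36% of all regions in BALB/c and 10.2% and 6.96% in SKG mice. Its start (chr3:136669109-136670170) held 128 and 134 CPM in BALB/c iNKT1, 160 and 158 in SKG iNKT1, 88.8, 104 and 122 in BALB/c iNKT2 and 93.0, 164 and 153 in SKG iNKT2. SKG iNKT2 replicate 1 lay far under the other 2 of its group, and no comparison at this start passed an adjusted p of 0.01. Within the gene, an intronic region at 57362 bp (chr3:136727334-136727639) held 6.003 and 6.30 CPM in BALB/c iNKT1, 6.17 and 4.88 in SKG iNKT1, 0.972, 0.741 and 0.742 in BALB/c iNKT2 and 0.505, 0.505 and 0.607 in SKG iNKT2. This was the lower call in each genotype (-2.90 ± 0.245 and -3.37 ± 0.277, edgeR adjusted p 1.4e-07 and 1.6e-07). Among the 4 higher calls in each genotype, an intergenic region 40091 bp upstream had the smallest p in BALB/c mice. The central 300 bases of this region (chr3:136629883-136630182) hold TGGAAA once and are shown because the site was nearly closed in iNKT1.
Ppp3ca upstream: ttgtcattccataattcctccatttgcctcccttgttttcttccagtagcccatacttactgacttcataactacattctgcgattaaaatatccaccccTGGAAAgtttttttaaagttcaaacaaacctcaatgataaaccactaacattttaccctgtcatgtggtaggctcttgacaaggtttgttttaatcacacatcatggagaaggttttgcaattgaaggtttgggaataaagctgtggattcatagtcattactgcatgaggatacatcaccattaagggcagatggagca

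The region (chr3:136629878-136630188) held 0.448 and 0.0882 CPM in BALB/c iNKT1, 0.257 and 0.321 in SKG iNKT1, 3.48, 3.49 and 4.04 in BALB/c iNKT2 and 2.11, 1.24 and 3.03 in SKG iNKT2. The subset change was 3.62 ± 0.477 in BALB/c (edgeR adjusted p 1.1e-05) and 2.83 ± 0.561 in SKG mice (adjusted p 6.2e-04), the latter lost without SKG iNKT1 replicate 1 (adjusted p 0.0139), with voom (0.0140) and with quantile normalization (0.0264). The other higher calls in BALB/c mice, named after their values were seen, were at chr3:136630405-136630708 (2.16), chr3:136673432-136673806 (2.26) and chr3:136835928-136836227 (2.50). Their edgeR adjusted p were 8.9e-05, 1.1e-05 and 9.2e-04, and quantile normalization ended all these calls. Floor subtraction (edgeR adjusted p 0.0252) and omission of BALB/c iNKT1 replicate 1 (1.81) also ended the last of them. The last was also called in SKG mice (2.87 ± 0.639, edgeR adjusted p 0.0016) on 6 insertions in SKG iNKT1. Voom (adjusted p 0.0267), quantile normalization (0.115) and floor subtraction (0.0197) ended that call. Omission of SKG iNKT1 replicate 1 or 2 (2.87 in each run) ended it too. In SKG mice, regions at 91683 and 161323 bp were also called higher in iNKT2. The first (chr3:136761646-136761968) held 0.627 and 1.23 CPM, 0.964 and 0.962, 2.23, 2.12 and 3.01, and 3.71, 5.28 and 7.48 in BALB/c iNKT1, SKG iNKT1, BALB/c iNKT2 and SKG iNKT2, with 2.48 ± 0.391 between SKG subsets (edgeR adjusted p 8.2e-05) and 1.15 ± 0.282 between the genotypes in iNKT2 (adjusted p 0.0074). The second (chr3:136831282-136831612) rested on 4 insertions in SKG iNKT1, and its call (3.27 ± 0.616, edgeR adjusted p 4.1e-04) was lost without SKG iNKT1 replicate 1 (adjusted p 0.0114), with voom (0.0127) and with quantile normalization (0.0466). The other Ppp3ca region higher in SKG iNKT2, short of 4-fold, lies in an intron at 72747 bp (chr3:136742587-136743156). There, 31.2, 35.9 and 40.9 CPM in SKG iNKT2 stood above 20.4, 22.5 and 20.9 in BALB/c iNKT2 (0.76 ± 0.129, edgeR adjusted p 5.5e-04), while the iNKT1 libraries held 16.1 to 17.4 CPM in both genotypes. The test of that difference between subsets gave 0.75 ± 0.208 with an adjusted p of 0.054.

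Rcan2, the relative of Rcan1 that is best known from other tissues, had group means of 0.133 to 3.35 CPM over its 5 regions, beside a median of 3.02 CPM over all regions of the table. A second start 151848 bp into the gene (chr17:43953050-43953349) held 0.388 and 0.485 CPM in BALB/c iNKT1, 0.128 and 0.321 in SKG iNKT1, 1.85, 1.67 and 3.01 in BALB/c iNKT2 and 2.17, 2.30 and 2.09 in SKG iNKT2. It was called higher in iNKT2 of both genotypes (2.31 ± 0.396 and 3.26 ± 0.502, edgeR adjusted p 1.3e-04 and 6.7e-05). At the 5′ end (chr17:43801164-43801463) the levels were 0.269 and 0.176 CPM, 0.193 and 0.321, 0.910, 1.24 and 1.07, and 0.921, 0.781 and 1.15 in the same order, with 2.21 ± 0.492 in BALB/c mice (edgeR adjusted p 0.0011) and 1.85 ± 0.555 in SKG mice (adjusted p 0.012). These weak regions were higher in the libraries whose floors were higher. With each library's floor subtracted the BALB/c call at the 5′ end was lost (adjusted p 0.0185), as was that of the intronic region at 68555 bp (chr17:43869757-43870056, adjusted p 0.198 against 0.0062), while the second start kept its calls. With quantile normalization the BALB/c calls were lost at the second start (1.42, adjusted p 0.0123), at the 5′ end (0.77, adjusted p 0.21) and at the intronic region (0.61, adjusted p 0.46). Without BALB/c iNKT1 replicate 2 the 5′ end also lost its call (adjusted p 0.0164), and the intronic region lost its own without BALB/c iNKT1 replicate 1 (0.0835) or 2 (0.0210) or BALB/c iNKT2 replicate 2 (0.0169) or 3 (0.0165). The replicate block (2.38, adjusted p 0.0142) and voom with limma (adjusted p 0.0128) ended the intronic call too.

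The wider pathway was counted over 27 other genes, listed for their role as calcineurin subunits, regulators, NFAT kinases, calmodulins, calcium channels and sensors, which held 502 regions. Of these, 57 (11.4%) were higher and 29 (5.78%) lower in iNKT2 of BALB/c mice, beside 15.5% and 6.36% of all regions. In SKG mice the counts were 43 (8.57%) and 32 (6.37%), beside 10.2% and 6.96%. Ppp3cc, another catalytic subunit of calcineurin, gave 10 of the 29 and 11 of the 32 lower calls, out of 17 regions. Stim1, the calcium sensor of the endoplasmic reticulum, held the region of smallest p in BALB/c mice, an intronic site (chr7:102322064-102322574) at 0.356 ± 0.130 CPM (SD, n = 2) in iNKT1 and 18.4 ± 5.34 CPM (SD, n = 3) in iNKT2 (5.62 ± 0.351, edgeR adjusted p 1.2e-08). Between genotypes, 1 (0.199%) was higher and 3 (0.598%) were lower in SKG iNKT1, beside 0.281% and 0.732% of all regions. In SKG iNKT2, 1 (0.199%) was higher and 6 (1.195%) were lower, beside 0.252% and 4.73%. A region near Akap5, which encodes an anchor for calcineurin, was lower in SKG cells of both subsets like the Rcan1 intron: 16.4 and 15.7 CPM against 3.21 and 3.27 in iNKT1 (-2.31 ± 0.346, edgeR adjusted p 0.0010), and 9.03, 5.03 and 5.24 against 1.49, 0.505 and 1.15 in iNKT2 (-2.57 ± 0.312, adjusted p 3.0e-05). It lies inside Mthfd1 (chr12:76308040-76308373).

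Sequence strings were counted in the central 300 bp of every region on both strands, as a description. TGGAAA was present in 34 of 154 members (22.1%) and in 23.4% of all regions, and in 2 of the 5 members lower in SKG iNKT2, the Rcan1 and Nfat5 sites shown above. The AP-1 string TGANTCA occurred in 13 members (8.44%, beside 10.6%), and both strings together in 2 members (1.30%, beside 2.63%), among them the Nfat5 site. GTGGGNG, found in Egr sites, occurred in 43 (27.9%, beside 28.7%), TCAAAG, found in Tcf sites, in 26 (16.9%, beside 21.5%), and TGTGGT, found in Runx sites, in 48 (31.2%, beside 30.3%). A match is not a bound site. The 3 Nfatc1 regions called lower in SKG iNKT2 did not hold TGGAAA in these windows, and their sequence is not shown.

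The summed CPM of a locus over the 10 libraries was compared with that of 13777 other loci with at least 5 regions, as a description in which the libraries fall into subsets. The loci most like Nfatc1 were those of Fxyd5 and Fxyd7 (Pearson's r on the log2 scale 0.996 and 0.995). For Nfatc2 they were Evi2 and Evi2a, which share their regions (0.990), for Nfatc3 Kng1 and Wnt8a (0.996 and 0.992), for Nfat5 Upk3a and Fam118a (0.961 and 0.960), for Rcan1 Me2 and Ppp2cb (0.979 and 0.978), for Rcan2 Fam167a and Slc9b2 (0.978 and 0.973), and for Ppp3ca Spata5 and Stard5 (both 0.992). All these points share the split between iNKT1 and iNKT2 libraries, the scaling and the floors.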

How the data were processed

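The authors sequenced ATAC libraries of sorted cells, and by their methods and the submitters' notes used Bowtie 1.0 on mm10, dropped duplicates (Picard) and mitochondrial reads, called summits with MACS2 and merged them into shared regions. The deposited table (94823 regions of 300 to 7709 bp) is named as normalized but holds whole numbers with unequal totals per library, so its values were taken as raw insertion counts, and every level and p-value rests on that reading. Starts were converted to 1-based coordinates, and features were taken from GENCODE M21 on GRCm38. Counts were fitted with edgeR 4.0.16 (TMM, 1 mean per group over all 10 libraries, quasi-likelihood F tests, no filter), with Benjamini-Hochberg adjustment. SE was derived from the estimate and its F statistic. The fit was tested on simulated data.

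Regions were named by a rule: start regions, the called region of smallest adjusted p in each member, comparison and direction, and the region called most often. Those outside it are said to be so. The members and lists were chosen with earlier results of these data known. Alternatives were library totals, DESeq2 1.42.0, limma 3.58.1 on voom values with and without quantile normalization, omission of regions whose mean insertions lay under the lower quartile (36.2), fits of only the groups compared, a replicate block, gene bodies only, no fold threshold, and omission of each library (a lone library left in a group of 2 was assumed to vary like the others). Subtracting each library's floor and leaving out regions in other genes were chosen after seeing the data. Deviations from the group mean correlated between same-numbered iNKT2 libraries of BALB/c and SKG mice at 0.492, 0.165 and 0.202. Libraries of different number reached 0.278, and in iNKT1 the value was -0.00599. The main fit did not pair libraries. The numbers from the library titles entered only the replicate block, an alternative run over all 10 libraries. Intervals cover counting error only. Sequences are the reference genome's, not those of the BALB/c strain. Some marker genes are not reported here.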

Additional observations from a re-analysis of the deposited data

How the results depend on the processing

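Of 41 called changes of single regions, 19 were called under every alternative run. Over 766 values from these alternatives, 686 stayed called, 80 were no longer called and none turned direction. The run with no fold threshold could not end a call, and its 41 values are among the 686. Quantile normalization with voom ended 16 of the 41 calls. For BALB/c iNKT2 against iNKT1, the 10 regions called higher became 4 with quantile normalization and voom, 6 with low counts left out and 20 with no fold threshold, and the 7 called lower became 11, 4 and 36, and 11 with the floor subtracted. For SKG iNKT2 against iNKT1, the 10 higher became 5 with either voom fit and 19 with no fold threshold, and the 8 lower became 32 with no fold threshold and 7 to 14 with a library left out (14 without SKG iNKT2 replicate 1). For SKG against BALB/c iNKT1, the 1 lower became 3 with DESeq2, with a fit of only these groups and with the replicate block, 0 with quantile normalization or the floor subtracted, and 0 to 3 with a library left out. For SKG against BALB/c iNKT2, the 0 higher became 1 with quantile normalization or the floor subtracted and 5 with no fold threshold, and the 5 lower became 2 with low counts left out, 8 with no fold threshold, and 3 to 7 with a library left out (3 without SKG iNKT2 replicate 2). The 0 lower of the difference between subsets became 1 with DESeq2. The filter on low counts removes weak regions before the test, and omission of a library removes samples. Otherwise the cause was not tested. The replicate block moved no other count by more than 1.5 times. In the iNKT2 genotype comparison it ended 1 call, at Nfatc1. Groups of 2 or 3 libraries, and regions under 1 CPM (18 of the members), limit what can be called.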
